A study of Mus musculus with 15 samples.

Results

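Ccn1, Ccn2, Skil, Id1, Id2, Id3, Smad6, Smad7 and Tgfbr2 are a receptor, intracellular inhibitors and response genes of transforming growth factor beta (TGF-beta) and bone morphogenetic protein (BMP) signalling. They are 9 named genes among 21839 genes of a deposited count table, found by their Ensembl IDs, and all 9 passed the filter on low counts that left 13887 genes for testing. The table covers lymphatic endothelial cells, the cells that line lymph vessels and lymph node sinuses, from mice of strain C57bl/6 at 10 weeks of age that had received a transplanted melanoma line described as lymphangiogenic. Groups were cells from the tumor (Tumor), from the tumor-draining lymph node (TdLN) and from a non-draining lymph node (NdLN), with 5 libraries each. Every group came from tumor-bearing mice, so NdLN is not a tumor-free control. The sources used here do not name the line, the node sites or the time after transplantation. Cells had been sorted as CD45-negative, CD31-positive and gp38-positive, per the labels' protocols.

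TGF-beta and activin ligands bind a type II and a type I receptor kinase, which phosphorylate SMAD2 and SMAD3, whereas BMP ligands lead to phosphorylation of SMAD1 and SMAD5. In endothelial cells the BMP arm, through ALK1 (the product of Acvrl1), drives the Id genes, while SMAD6, SMAD7 and SKIL act as brakes that the pathway itself induces. CCN1 and CCN2 are secreted matrix proteins whose genes respond to TGF-beta, to serum and mechanical cues, and to the YAP and TAZ coactivators of the Hippo pathway.

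Total counts were 23830337 to 37437282 per library. Levels are given in CPM, counts scaled to a common library size with TMM factors, as mean ± SD over the 5 libraries of a group. Prox1, the transcription factor of lymphatic identity, averaged 766 CPM over NdLN, 539 over TdLN and 105 over Tumor libraries, and the summed level of 11 lymphatic endothelial genes was 11236 to 15068, 10156 to 11825 and 4437 to 6240 CPM. Of the 11, 6 fell and 2 rose in Tumor against NdLN. The 2 were the chemokine gene Ccl21a (105, 135 and 1227 CPM in NdLN, TdLN and Tumor) and Reln (32.8, 35.4 and 83.7 CPM). Between the nodes 1 rose, the hyaluronan receptor gene Lyve1 (977 to 1680 CPM). Pdpn, which encodes gp38, was at 124, 120 and 116 CPM, Pecam1, which encodes CD31, at 1596, 1179 and 276 CPM, and Ptprc, which encodes CD45, at 5.43, 1.10 and 1.68 CPM. Pigment cell genes summed to 12.4 to 38.1 CPM in the node libraries and to 24488 to 40229 CPM in the Tumor libraries, and all 9 of them that were tested rose in Tumor. Fibroblast genes summed to 155 to 574 CPM in the nodes and 1418 to 10340 CPM in Tumor, where 8 of 10 rose against TdLN, and macrophage genes to 9.50 to 48.5 and 109 to 246 CPM. The 12 blood endothelial genes summed to 3033 to 6150 CPM in NdLN, 2962 to 7393 in TdLN and 635 to 1184 in Tumor. Of them 4 fell in TdLN against NdLN (median -0.91): Flt1 (26.3 to 7.48 CPM), Vwf (38.8 to 14.3), Emcn (131 to 56.3) and Gpihbp1 (56.8 to 18.5). Their most abundant genes in the nodes were Plvap (2501 and 3325 CPM) and Glycam1 (1454 and 2022 CPM), which did not pass there, and Glycam1 was at 1.59 CPM in Tumor. In Tumor against NdLN 8 of the 12 fell and 2 rose, Cd34 (67.8 to 188 CPM) and Ly6c1 (32.1 to 69.7 CPM). In Tumor against TdLN 5 of the 12 fell and 4 rose. Each of those marker sets had counts in every group. RNA of other cells thus moved with the Tumor comparisons, and some blood endothelial genes moved between the nodes as well. Their part in the member differences was not tested. In bulk libraries, fewer cells of a type and less RNA per cell cannot be told apart.

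Immediate early genes, which cells transcribe within minutes of stimulation or tissue handling, also differed between the groups. The 22 genes of that list had summed levels of 35657 to 46935 CPM (NdLN), 14556 to 26023 CPM (TdLN) and 4155 to 4493 CPM (Tumor). Of them 16 fell in TdLN against NdLN, 18 in Tumor against TdLN and 19 in Tumor against NdLN. Fos averaged 10767, 5338 and 887 CPM, Egr1 5085, 2271 and 319 CPM, and Atf3 1167, 412 and 194 CPM. Ccn1 is itself a classical immediate early gene, and the part of this gradient in the member differences was not tested.

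The members fell into separate patterns. Ccn1 and Skil were stepwise lower from NdLN to TdLN to Tumor, with no overlap between groups at either step, and Tgfbr2 followed the same order of levels, with a smaller first step that did not pass the test. Ccn2 and Id3 were lower in TdLN than in NdLN, and Ccn2 was again higher in Tumor than in TdLN. Id2 ran the other way, with its highest mean in Tumor. Id1 passed no test in the edgeR fit of all 15 libraries, and neither did Smad6 or Smad7, the least abundant members.

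**Figure D1:**
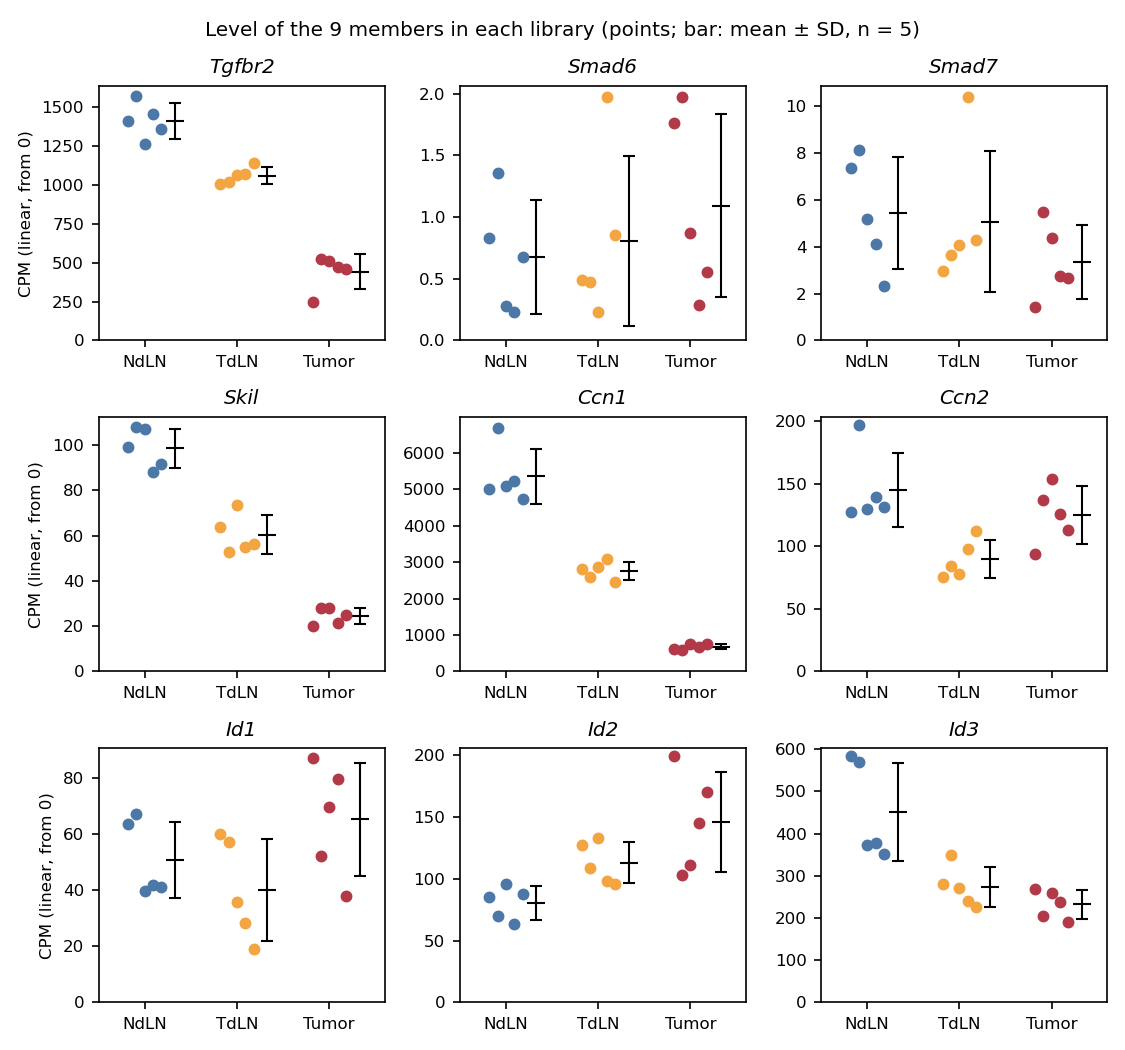
CPM of each member in every library (points, linear axes that start at 0 and differ between panels), with mean ± SD as a bar, for 5 NdLN, 5 TdLN and 5 Tumor libraries. Ccn1 steps down from 4742 to 6676 CPM in NdLN to 601 to 752 CPM in Tumor, while the Id1, Smad6 and Smad7 points of the groups overlap.

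A gene was called changed at an adjusted p under 0.05 in edgeR's quasi-likelihood test with Benjamini-Hochberg adjustment over all genes tested. Log2 fold changes carry their standard error. In TdLN against NdLN, 4 of 9 members fell and 0 rose, where 3.49% of all genes were called, 1.64% lower and 1.84% higher. In the same comparison, 16 of the 22 immediate early genes and 4 of the 12 blood endothelial genes given above fell. At an unadjusted p under 0.05, 1 member (Id2) was higher, and DESeq2 and limma voom called 0 higher as well. The members' median log2 fold change was -0.41 against -0.01 over all genes. For 5 of 9 members every TdLN library lay below every NdLN library, a separation that 4.95% of all genes showed. The members were chosen with earlier results of these data known, so neither count is a test of the set. In Tumor against TdLN, 3 members fell and 1 rose where 62.0% of all genes were called (30.1% lower, 31.9% higher), so the count of 4 of 9 is below the share of all genes. The members' median was -0.24 against 0.04 over all genes. The 3 that fell had groups that did not overlap, as did 22.5% of all genes in that direction. In Tumor against NdLN, 4 fell and 1 rose where 66.5% were called (32.5% lower, 34.0% higher), with a median of -0.69 against 0.04. The 4 that fell lay below without overlap, as 27.0% of all genes did, and the 1 that rose lay above, as 27.7% did. Both Tumor comparisons share libraries with the comparison of the nodes and with each other, so they are not separate evidence.

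**Figure D2:**
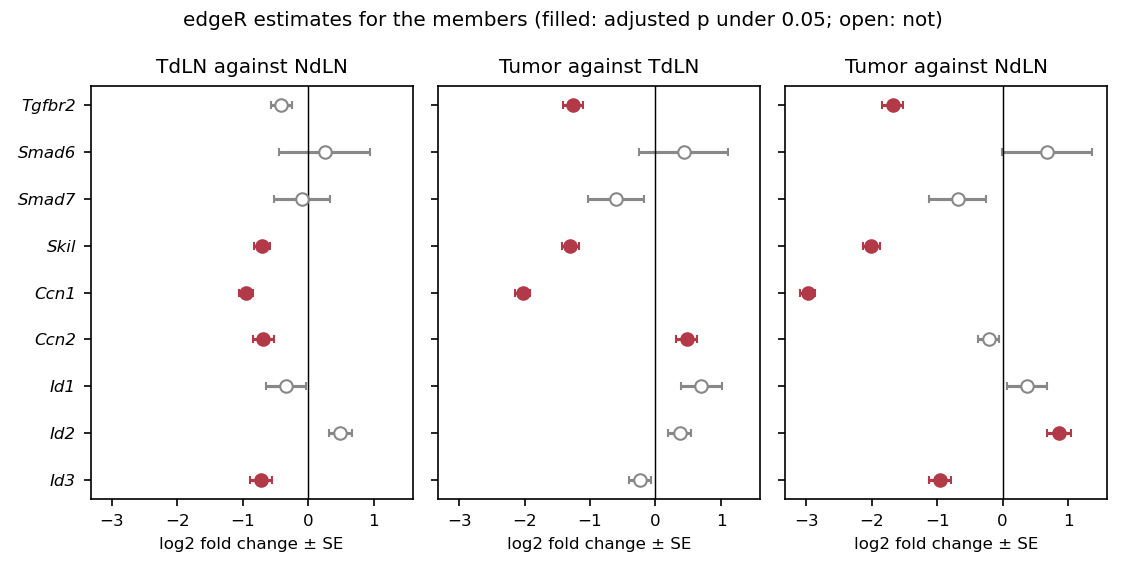
Log2 fold change ± SE of each member from edgeR in 3 comparisons, with filled points for an adjusted p under 0.05. Ccn1 and Skil are filled and below 0 in each panel, Id2 is filled and above 0 in Tumor against NdLN, and Ccn2 changes side between the first and second panel.

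Per length of exon, Ccn1 was the most abundant member in every group, with 2650 ± 377, 1367 ± 123 and 335 ± 35.4 CPM per kb from NdLN through TdLN to Tumor. Id3 ranked 2 in every group, at 252 ± 64.1, 153 ± 26.3 and 130 ± 18.8 CPM per kb. Tgfbr2 ranked 3 in the nodes, at 173 ± 13.9 and 130 ± 6.63 CPM per kb, and its distance from Id3 in TdLN was within the spread of Id3. In Tumor it ranked 5, at 54.0 ± 13.8 CPM per kb, among Id2 (59.7 ± 16.5), Id1 (56.4 ± 17.4) and Ccn2 (43.6 ± 8.06), which did not differ beyond their spread. In NdLN the middle of the order was Ccn2 (50.6 ± 10.3), Id1 (43.8 ± 11.6) and Id2 (32.9 ± 5.52 CPM per kb). Skil, Smad7 and Smad6 were last in every group, at 10.2 ± 0.905, 1.20 ± 0.524 and 0.211 ± 0.144 CPM per kb in NdLN. Exon lengths are those of all annotated exons joined, which for Skil and Tgfbr2 may exceed the transcript in use.

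Tgfbr2 encodes the type II receptor kinase that binds TGF-beta itself. The gene (ENSMUSG00000032440) lies on the minus strand at chr9:116084293-116175360 in GRCm38. It is shown with the 250 bases before its RefSeq start (GRCm38.p6, chr9:116175364-116175613, minus strand, 5′ to 3′), since it is the one member here that acts at the head of the pathway. Capitals mark the single match to the short SMAD-binding motif CAGAC on either strand, whose first base lies at -160 from the start.
Tgfbr2: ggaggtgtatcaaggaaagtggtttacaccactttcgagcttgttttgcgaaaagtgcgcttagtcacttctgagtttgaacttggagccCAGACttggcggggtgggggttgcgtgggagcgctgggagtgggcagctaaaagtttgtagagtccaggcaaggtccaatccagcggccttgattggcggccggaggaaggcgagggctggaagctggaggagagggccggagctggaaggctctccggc
In NdLN libraries 1 to 5 Tgfbr2 stood at 1412, 1572, 1266, 1460 and 1360 CPM. TdLN libraries 1 to 5 gave 1005, 1021, 1064, 1069 and 1144 CPM. Tumor libraries 1 to 5 gave 245, 525, 509, 471 and 459 CPM. No library of one group reached the range of another, and Tumor 1 stood apart below the other 4 of its group. The log2 fold change of TdLN against NdLN was -0.41 ± 0.16 and did not pass (adjusted p = 0.181). It passed in a fit of only the 2 groups (adjusted p = 0.016), with limma voom and quality weights (0.0283), and without Tumor 1 (0.00631), a library of neither group that enters the fit of all 15. Tgfbr2 fell in Tumor against TdLN by 1.26 ± 0.16 on the log2 scale (adjusted p = 6.21e-06) and against NdLN by 1.68 ± 0.16 (2.87e-07). The Tumor values are those of the sorted material as a whole, pigment cell RNA included.

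The inhibitory SMADs were scarce. Smad6, whose product blocks mainly BMP receptor signalling, had 7 to 75 counts per library. Its level was 0.829, 1.36, 0.283, 0.228 and 0.677 CPM in NdLN 1 to 5, 0.491, 0.473, 0.230, 1.97 and 0.854 CPM in TdLN 1 to 5, and 1.76, 1.97, 0.871, 0.287 and 0.551 CPM in Tumor 1 to 5. Within each group the libraries spread over a range wider than any difference between group means. The log2 fold changes were 0.25 ± 0.69 in TdLN against NdLN (adjusted p = 0.889), 0.43 ± 0.68 in Tumor against TdLN (0.602) and 0.68 ± 0.69 in Tumor against NdLN (0.395). No difference was thus detected, given these few counts and this spread between libraries.

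Smad7, which encodes the general inhibitor of TGF-beta and BMP receptors, was at 7.37, 8.14, 5.17, 4.10 and 2.34 CPM in NdLN 1 to 5. In TdLN 1 to 5 it was 2.97, 3.66, 4.06, 10.4 and 4.27 CPM. Tumor 1 to 5 gave 1.43, 5.48, 4.38, 2.76 and 2.67 CPM. The groups overlapped, and TdLN 4 alone held the highest value of all. Log2 fold changes were -0.10 ± 0.43 (TdLN against NdLN, adjusted p = 0.934), -0.60 ± 0.43 (Tumor against TdLN, 0.245) and -0.69 ± 0.43 (Tumor against NdLN, 0.169). Smad6 made up 15.2 ± 9.15% of Smad6 plus Smad7 per length in NdLN, 17.0 ± 5.92% in TdLN and 30.9 ± 19.6% in Tumor, differences within the spread of the Tumor libraries.

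Skil encodes SnoN, a corepressor that binds SMAD complexes at their targets and is itself induced by TGF-beta. The gene (ENSMUSG00000027660) lies at chr3:31095058-31122577 on the plus strand. It stood at 99.1, 108, 107, 87.9 and 91.7 CPM in NdLN 1 to 5. TdLN 1 to 5 gave 63.9, 52.7, 73.7, 55.0 and 56.1 CPM, and Tumor 1 to 5 gave 20.1, 28.1, 28.1, 21.5 and 25.0 CPM. All TdLN libraries lay below all NdLN libraries, and all Tumor libraries lay below both. Skil fell by 0.71 ± 0.12 on the log2 scale in TdLN against NdLN (adjusted p = 0.00600), by 1.30 ± 0.13 in Tumor against TdLN (3.72e-07) and by 2.01 ± 0.13 in Tumor against NdLN (3.35e-09). These calls held whichever library was left out, with the highest adjusted p at 0.0202 for the comparison of the nodes.

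Ccn1 encodes a secreted matrix protein that binds integrins and is strongly induced by YAP, serum and TGF-beta. The gene (ENSMUSG00000028195) lies on the minus strand at chr3:145646976-145649981. Its upstream 250 bases (RefSeq, GRCm38.p6, chr3:145649986-145650235, minus strand, 5′ to 3′) are shown because it had the lowest log2 fold change of the 9 members in each comparison. Capitals mark, in this order, a reverse-strand match to the TEAD motif GGAATG, through which YAP acts (first base at -103), and a match to GGCGCC, found in BMP response elements (first base at -42).
Ccn1: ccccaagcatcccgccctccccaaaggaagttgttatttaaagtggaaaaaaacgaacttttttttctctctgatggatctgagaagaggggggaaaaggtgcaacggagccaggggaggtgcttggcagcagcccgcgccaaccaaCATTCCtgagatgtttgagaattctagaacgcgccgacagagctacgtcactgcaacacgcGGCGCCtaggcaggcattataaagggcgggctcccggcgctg
Among 32851 RefSeq promoter windows of 300 bases, each from 250 bases before to 50 after a start, GGAATG was found on either strand in 14.7%, GGCGCC in 11.9% and CAGAC in 49.6%. Windows of 5 members were read in that table, those of Ccn1, Id2, Id3, Smad6 and Tgfbr2. GGAATG was in 2 of them (Ccn1, Id3), GGCGCC in 2 (Ccn1, Id2) and CAGAC in 3 (Ccn1 just after the start, Id3, Tgfbr2). The 250 bases before the RefSeq starts of Id2 and Id3 lie inside the annotated spans of these genes. Each overlaps 1 annotated exon, so those matches are not upstream of the whole annotated gene. The AP-1 motif TGANTCA, present in 7.81% of all windows, and the serum response CArG box, in 1.63%, were in 0 of the 5. A match is a description of the letters, and no match says only that these letters are not in the window.

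Ccn1 stood at 5011, 6676, 5091, 5234 and 4742 CPM in NdLN 1 to 5. The TdLN libraries gave 2817, 2602, 2860, 3084 and 2440 CPM. Tumor 1 to 5 gave 619, 601, 752, 662 and 750 CPM. The 3 groups formed separate blocks, with NdLN 2 above the rest of its group. Ccn1 fell by 0.95 ± 0.11 on the log2 scale in TdLN against NdLN (1.94-fold, adjusted p = 0.00111). It fell 4.08-fold in Tumor against TdLN (log2 fold change -2.03 ± 0.12, adjusted p = 1.1e-09) and 7.91-fold in Tumor against NdLN (-2.98 ± 0.12, 2.85e-11). Across the 15 libraries, log2 CPM of Ccn1 correlated with the mean log2 CPM of the 22 immediate early genes at r = 0.98. With group means removed the value was 0.45, so most of that likeness was carried by the group means. The libraries of both measures share depth and handling.

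Ccn2, formerly called connective tissue growth factor, is a profibrotic TGF-beta and YAP target. The gene (ENSMUSG00000019997) lies at chr10:24595442-24598683 on the plus strand. Its exons overlap those of Gm15270, an antisense transcript not analysed here, and reads of the pair cannot be told apart if counting ignored strand. Ccn2 stood at 127, 197, 130, 139 and 131 CPM in NdLN 1 to 5. TdLN 1 to 5 gave 75.6, 84.1, 78.1, 97.7 and 112 CPM, and Tumor 1 to 5 gave 93.7, 137, 154, 126 and 113 CPM. Every TdLN library lay below every NdLN library, whereas the Tumor libraries overlapped both other groups.

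Ccn2 fell by 0.69 ± 0.16 on the log2 scale in TdLN against NdLN (adjusted p = 0.0281). That call was lost without NdLN 2 (adjusted p = 0.0719), NdLN 4 (0.0543), TdLN 1 (0.0860), TdLN 2 (0.0759) or TdLN 3 (0.0669). It rose by 0.48 ± 0.16 in Tumor against TdLN (adjusted p = 0.0163), a call lost without Tumor 3 (0.37, adjusted p = 0.0609). Tumor against NdLN gave -0.21 ± 0.16 (adjusted p = 0.249). With group means removed, Ccn2 correlated with the immediate early mean at r = 0.78 over the 15 libraries. Over all libraries, group means included, that r was 0.21. With group means removed, the same r was 0.79 for Smad7, 0.37 for Tgfbr2, 0.13 for Skil, 0.10 for Id3, -0.13 for Id1 and -0.61 for Id2. For Smad6 it was 0.69, a value that rests on 7 to 75 counts per library. Over all libraries it was 0.96 for Skil and 0.94 for Tgfbr2. The immediate early mean weighs its 22 genes equally on the log2 scale. Some spread widely within a group, such as Klf2 (293 ± 361 CPM in TdLN) and Jund (179 ± 218 CPM). Fos spread less (5338 ± 791 CPM in TdLN). Which of the 22 genes carried these r values was not tested.

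The ratio of the CCN pair differed by site. The number of Ccn1 counts per Ccn2 count was 37.3 ± 2.31 (NdLN), 31.6 ± 6.23 (TdLN) and 5.55 ± 1.02 (Tumor). The Tumor range, 4.39 to 6.64, lay below the lowest node library at 21.7. Per length, Ccn1 made up 98.1 ± 0.117% of the sum of the pair in NdLN, 97.7 ± 0.522% in TdLN and 88.5 ± 1.87% in Tumor. These shares were described and not tested.

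The ID proteins are helix-loop-helix factors without a DNA-binding part. They hold E proteins in inactive pairs and are immediate targets of BMP signalling in endothelium. Id1 (ENSMUSG00000042745, chr2:152736251-152737410, plus strand) stood at 63.8, 67.1, 39.9, 42.0 and 41.1 CPM in NdLN 1 to 5. TdLN 1 to 5 gave 60.3, 57.2, 36.0, 28.3 and 18.9 CPM, and Tumor 1 to 5 gave 87.4, 52.3, 69.8, 79.7 and 38.0 CPM. The groups overlapped throughout, and in the nodes libraries 1 and 2 were the highest of their group. Log2 fold changes were -0.34 ± 0.31 (TdLN against NdLN, adjusted p = 0.624), 0.70 ± 0.31 (Tumor against TdLN, 0.0574) and 0.37 ± 0.31 (Tumor against NdLN, 0.302). The second value passed with DESeq2 (adjusted p = 0.0407), with limma voom (0.92, 0.0199), and in edgeR without TdLN 1 (0.89, 0.0240), TdLN 2 (0.86, 0.0324) or Tumor 5 (0.85, 0.0261).

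Id2 (ENSMUSG00000020644, chr12:25093799-25097140, minus strand) is the family member also known for its role in lymphoid cell development. It stood at 85.0, 69.9, 96.0, 63.1 and 87.4 CPM in NdLN 1 to 5. In the TdLN libraries it was 127, 109, 133, 98.1 and 95.7 CPM, and Tumor 1 to 5 gave 199, 103, 111, 145 and 170 CPM. All Tumor libraries lay above all NdLN libraries, while TdLN 5 fell just short of NdLN 3. Id2 rose by 0.86 ± 0.18 on the log2 scale in Tumor against NdLN (adjusted p = 0.000604) and was the one member that did. TdLN against NdLN gave 0.49 ± 0.18 (adjusted p = 0.165), and Tumor against TdLN 0.37 ± 0.18 (0.0826), which passed without Tumor 2 (0.44, adjusted p = 0.0416).

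Id3 (ENSMUSG00000007872, chr4:136143497-136145755, plus strand) was the most abundant of the family. It stood at 583, 569, 373, 377 and 352 CPM in NdLN 1 to 5. TdLN 1 to 5 gave 281, 349, 272, 241 and 227 CPM, and Tumor 1 to 5 gave 268, 204, 260, 237 and 191 CPM. All NdLN libraries lay above all others, narrowly so for NdLN 5 (352) over TdLN 2 (349), and NdLN 1 and 2 were well above the remaining 3 of their group. Id3 fell by 0.72 ± 0.17 on the log2 scale in TdLN against NdLN (adjusted p = 0.0304). That call was lost without NdLN 1 (adjusted p = 0.0718), NdLN 2 (0.0842), TdLN 1 (0.0735), TdLN 3 (0.0622), TdLN 4 (0.0551) or TdLN 5 (0.0507). Id3 fell by 0.96 ± 0.17 in Tumor against NdLN (adjusted p = 0.000135), and Tumor against TdLN gave -0.24 ± 0.17 (0.226).

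Id3 fell and Id2 rose in Tumor against NdLN, and the shares of the Id genes in their sum differed between groups. Per length, Id3 made up 76.3 ± 2.51% of Id1 plus Id2 plus Id3 in NdLN, 65.7 ± 3.71% in TdLN and 53.0 ± 4.02% in Tumor. Id2 made up 10.5 ± 3.06%, 20.0 ± 2.80% and 24.4 ± 5.87%, and Id1 13.3 ± 0.748%, 14.2 ± 4.30% and 22.6 ± 4.11%. Tumor 5 held the highest Id2 share, 33.3%, and Tumor 4 the highest Id1 share, 26.4%. With group means removed, Id1 and Id3 varied together between libraries (r = 0.83 over 15 libraries), and Id2 ran against Ccn2 (r = -0.79) and against Tgfbr2 (r = -0.73). The points share library, depth and sort, and these values are descriptions.

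**Figure D3:**
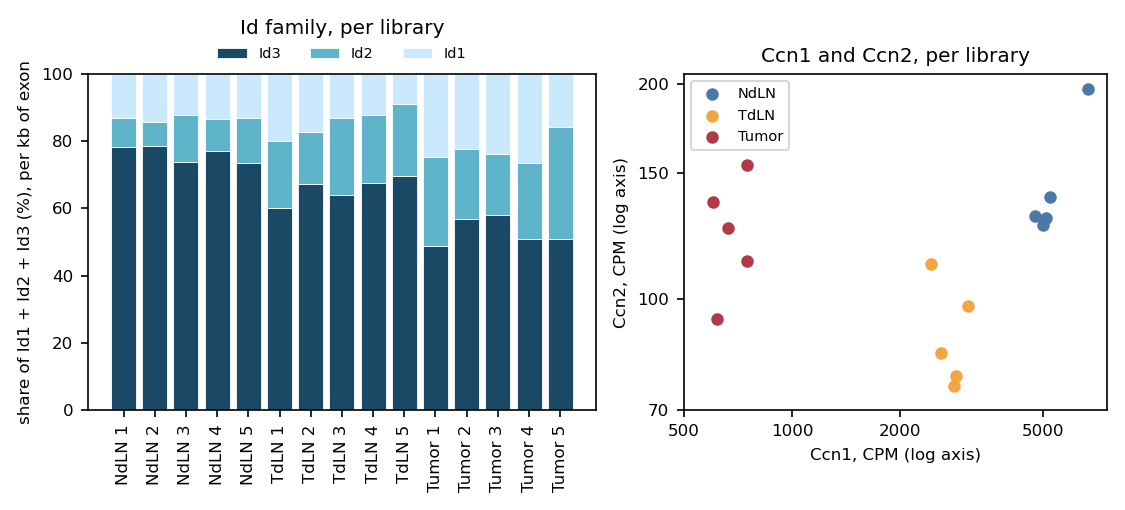
Left, share of Id3, Id2 and Id1 in their sum per kb of exon for each of the 15 libraries (stacked bars, %). Right, Ccn2 against Ccn1 in CPM (both axes log) with 1 point per library, where the Tumor points have 601 to 752 CPM of Ccn1 at 93.7 to 154 CPM of Ccn2.

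Genes whose library-to-library deviations, after removing group means, were most like those of a member were sought among 5831 protein-coding genes whose average log2 CPM reached 5. For Ccn1 these were Plk2, a serum-inducible kinase gene (r = 0.84 over 15 libraries), Ell, which encodes an elongation factor of RNA polymerase II (0.77), and Rabggta (0.74). For Ccn2 they were Klf4, an inducible zinc-finger factor of endothelium (0.91), Agrn, which encodes the matrix proteoglycan agrin (0.90), and Adgra2 (0.90). For Id1 they included 1110059E24Rik (0.91) and Eif2b2 (0.87), and for Id3 they were Slc31a2 (0.94), Gng11 (0.92) and Pkig (0.90). The genes most like Smad6 were sought as well and are not reported here, because of its few counts. The highest of 5831 values is high by selection. Over all libraries, group means included, r for the genes named here ran from -0.36 (Gng11 and Pkig with Id3) to 0.99 (Plk2 with Ccn1). Klf4, at 0.29 with Ccn2 by that measure, is also 1 of the 22 immediate early genes.

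The rest of the pathway was read from lists of ligands, receptors, SMADs, inhibitors, antagonists and response genes. Over all genes tested, 1.64% were called lower and 1.84% higher in TdLN against NdLN. In Tumor against NdLN these shares were 32.5% and 34.0%. A list count near these shares is not a result about that list. Of the 7 genes tested from a list of TGF-beta and activin ligands, 1 fell in TdLN against NdLN. It was Gdf15, a stress-induced gene listed by its family, from 164 ± 68.3 to 47.9 ± 11.2 CPM (log2 fold change -1.78 ± 0.26, adjusted p = 0.00283). Tgfb1 averaged 166 ± 15.4 (NdLN), 196 ± 43.5 (TdLN) and 168 ± 78.7 CPM (Tumor) and passed no test. Tgfb3 was at 176 ± 18 and 167 ± 9.63 CPM in the nodes and fell to 47.1 ± 9.72 CPM in Tumor (-1.90 ± 0.14 against NdLN, adjusted p = 1.14e-08). In Tumor against NdLN 2 of the 7 rose (Inhba and Inhbb) and 3 fell (Tgfb2, Tgfb3 and Gdf15), with a median of 0.02 against 0.04 over all genes. Inhba was low, at 2.08 ± 1.84 CPM in Tumor with overlapping groups, and its call was lost with limma voom (adjusted p = 0.131). Inhbb, an activin subunit gene, rose from 0.770 ± 0.257 to 26.0 ± 11.6 CPM (5.07 ± 0.39, adjusted p = 2.35e-08).

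Latent TGF-beta is stored in matrix by its binding proteins and released by integrins. Of 11 genes tested from a list for that storage and activation, 6 fell and 2 rose (Itgav and Itgb5) in Tumor against NdLN, with a median of -1.89. Ltbp2, listed by its family name, was at 789 ± 254, 640 ± 150 and 7.47 ± 2.99 CPM, and Ltbp1 at 288 ± 26.4, 226 ± 27.0 and 27.9 ± 10.9 CPM. The family name does not show that the Ltbp2 product stores TGF-beta, and storage was not measured. In TdLN against NdLN edgeR, DESeq2 and limma voom each called 0 of the 11, and 1 was higher at an unadjusted p under 0.05.

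BMP ligands were the list with the lowest median in Tumor. The list includes Bmp1, which encodes a procollagen protease and not a ligand, and which did not pass. Of 7 tested, Bmp1 included, 5 fell (Bmp2, Bmp3, Bmp4, Bmp6 and Bmp8a) and 0 rose in Tumor against NdLN, with a median log2 fold change of -5.26, and 0 were higher at an unadjusted p under 0.05, with DESeq2 or with limma voom. Bmp2 averaged 898 ± 259 (NdLN), 752 ± 343 (TdLN) and 23.4 ± 10.2 CPM (Tumor) (-5.26 ± 0.43 for Tumor against NdLN, adjusted p = 5.61e-08). Bmp4 was at 74.6 ± 15.8, 41.6 ± 13.1 and 0.515 ± 0.280 CPM. Bmp8a was at 111 ± 31.8, 118 ± 48.5 and 0.369 ± 0.448 CPM, and both fell in each Tumor comparison. In TdLN against NdLN 0 of the 7 were called by edgeR, 1 was lower at an unadjusted p under 0.05, and limma voom called 1 (Bmp4, adjusted p = 0.0298) and DESeq2 0. 

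Of 14 receptors and co-receptors tested, Tgfbr2 included, 10 fell and 1 rose in Tumor against NdLN (median -1.46). Over all genes 32.5% were called lower there and 34.0% higher. The 1 that rose was Bmpr1a, a BMP type I receptor gene, from 0.624 ± 0.533 CPM in NdLN to 14.7 ± 6.37 CPM in Tumor (log2 fold change 4.55 ± 0.61, adjusted p = 9.3e-06). Tgfbr1, the type I partner of Tgfbr2, was at 75.8 ± 14.7, 74.6 ± 15.8 and 15.4 ± 4.82 CPM. Tgfbr3, the co-receptor betaglycan, was at 544 ± 128, 435 ± 54.5 and 44.1 ± 21.5 CPM. Acvrl1 was at 282 ± 15.8, 225 ± 32.8 and 71.9 ± 7.61 CPM, and Eng, its endothelial co-receptor endoglin, at 767 ± 85.2, 591 ± 82.5 and 316 ± 115 CPM. These 4 fell in Tumor against NdLN, by 1.28 ± 0.25 (Eng, adjusted p = 0.000327) to 3.62 ± 0.35 (Tgfbr3, 2.9e-07) on the log2 scale, while none of the 4 passed in TdLN against NdLN (adjusted p = 0.115 to 0.975), although Acvrl1 did with limma voom (0.0337) and Eng without Tumor 1 (0.0444). There the 1 receptor list gene called was Bambi, a decoy receptor and BMP target, from 184 ± 22.2 to 127 ± 23.9 CPM (-0.54 ± 0.14, adjusted p = 0.0407). The Bambi call was lost in 8 of 15 fits with a library left out (adjusted p up to 0.112, without TdLN 1).

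Among the signalling SMADs and adaptors, 3 of 7 tested fell and 0 rose in Tumor against NdLN, with 0 higher at an unadjusted p under 0.05, with DESeq2 or with limma voom. The 3 were Smad1 and Smad5, the SMADs of the BMP arm, and Zfyve16. Smad1 was at 574 ± 111, 563 ± 142 and 253 ± 48.5 CPM (Tumor against NdLN -1.18 ± 0.20, adjusted p = 0.000104), and Smad5 at 117 ± 7.17, 89.7 ± 15.6 and 60.5 ± 8.16 CPM (-0.95 ± 0.13, 1.17e-05). Smad2, of the TGF-beta arm, was at 42.2 ± 7.85, 46.8 ± 12.0 and 46.5 ± 8.33 CPM and passed no test. Smad4, the shared partner, was at 34.5 ± 6.13, 49.6 ± 13.1 and 45.8 ± 37.7 CPM and passed none in edgeR, although limma voom gave a call in Tumor against TdLN (-0.95, adjusted p = 0.0119).

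Of 13 intracellular inhibitors, which include Skil, Smad6 and Smad7, 2 fell in TdLN against NdLN, Skil and Tgif1. Tgif1, a homeobox corepressor of SMADs, went from 100 ± 18.3 to 56.7 ± 4.91 CPM (-0.83 ± 0.12, adjusted p = 0.00226). In Tumor against NdLN 4 fell (Ski, Skil, Tgif1 and Tgif2) and 1 rose. The 1 that rose was Pmepa1, a TGF-beta-induced inhibitor, from 9.24 ± 1.22 to 32.7 ± 22.5 CPM (1.82 ± 0.33, adjusted p = 0.000151). Of 13 secreted antagonists, 4 rose in that comparison and 5 fell (Crim1, Fstl1, Grem1, Sostdc1 and Twsg1), Fstl3 rising from 1.66 ± 0.460 to 8.59 ± 0.758 CPM and Fstl1 falling from 1232 ± 148 to 397 ± 72.6 CPM.

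Other response genes gave context for the members. Of 13 other genes listed as BMP responses, 3 fell in TdLN against NdLN (Adamts1, Hey1 and Klf10), where 1.64% of all genes were called lower. In Tumor against NdLN 9 fell, and the list median was -2.25. Genes of this list also respond to other pathways, so the counts do not measure BMP signalling. Adamts1, a secreted protease gene, went from 847 ± 384 to 317 ± 27.3 CPM (-1.42 ± 0.30, adjusted p = 0.0193). Hey1, a Notch and BMP target repressor (-1.33 ± 0.30, 0.0230), and Klf10, also known as TGF-beta inducible early gene (-0.61 ± 0.14, 0.0294), lost their calls without NdLN 1 (0.0521 and 0.0696) and without TdLN 1 (0.0711 and 0.0637), among others. Of 18 other TGF-beta response genes, Bhlhe40 fell in TdLN against NdLN (-0.57 ± 0.12, adjusted p = 0.0202), a call lost without NdLN 3, TdLN 2 or TdLN 5 (0.0524 to 0.0588). In Tumor against NdLN 8 of the 18 fell and 3 rose (Acta2, Col1a1 and Snai2, of which Acta2 and Col1a1 are known from smooth muscle and fibroblasts). Tgfbi, which encodes a TGF-beta-induced matrix protein, was at 703 ± 77.6, 679 ± 42.2 and 71.9 ± 11.2 CPM, and Timp3, a metalloproteinase inhibitor gene, at 2938 ± 186, 2722 ± 195 and 442 ± 58.5 CPM, and both fell.

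The CCN and YAP list, which includes Ccn1 and Ccn2, had 1 gene higher and 3 lower of 23 tested in TdLN against NdLN. Beside the CCN pair the lower gene was Amotl2, a YAP-induced inhibitor of YAP, from 326 ± 33.4 to 153 ± 20.8 CPM (-1.09 ± 0.26, adjusted p = 0.0328), a call lost in 11 of 15 fits with a library left out (adjusted p up to 0.0936, without TdLN 2). The higher gene was Ccn5, a CCN family member, at 3.55 ± 0.567, 11.2 ± 4.08 and 26.7 ± 9.85 CPM (1.65 ± 0.29 in TdLN against NdLN, adjusted p = 0.00627). Ccn4 rose from 0.529 ± 0.247 CPM in NdLN to 23.9 ± 5.99 CPM in Tumor (5.50 ± 0.43, adjusted p = 3.21e-08). In Tumor against NdLN 8 of the 23 rose and 11 fell, where 34.0% of all genes were called higher and 32.5% lower. Wwtr1, which encodes TAZ, was at 394 ± 36.7, 281 ± 26.1 and 186 ± 27.3 CPM. It was the 1 of 16 Hippo components that fell in TdLN against NdLN (-0.49 ± 0.11, adjusted p = 0.0235, lost in 6 of 15 fits with a library left out, up to 0.0690 without NdLN 2) and it fell in Tumor against NdLN as well (-1.08 ± 0.11, 5.19e-07), where 5 of the 16 fell (Lats2, Mob1a, Tead3, Tead4, Wwtr1) and 3 rose (Sav1, Stk4, Wwc1). Falls among the 16 were thus near the share of all genes called lower, 32.5%.

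A list of E proteins, the partners that ID proteins hold, also held the tissue-specific helix-loop-helix factors Tal1 and Lyl1, which pair with E proteins. Of its 5 genes tested, 1 rose and 2 fell in Tumor against NdLN. Tcf12, an E protein gene, rose from 50.5 ± 4.68 to 176 ± 36.9 CPM (1.8 ± 0.15, adjusted p = 7.55e-08). Lyl1 fell from 10.3 ± 0.558 to 2.30 ± 0.764 CPM (-2.16 ± 0.25, 1.73e-06), and Tal1 fell from 17.2 ± 10.7 to 5.62 ± 2.29 CPM (-1.61 ± 0.44, 0.00431). For every list the Tumor values carry the pigment, fibroblast and macrophage RNA given at the start, whose part was not tested.

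**Figure D4:**
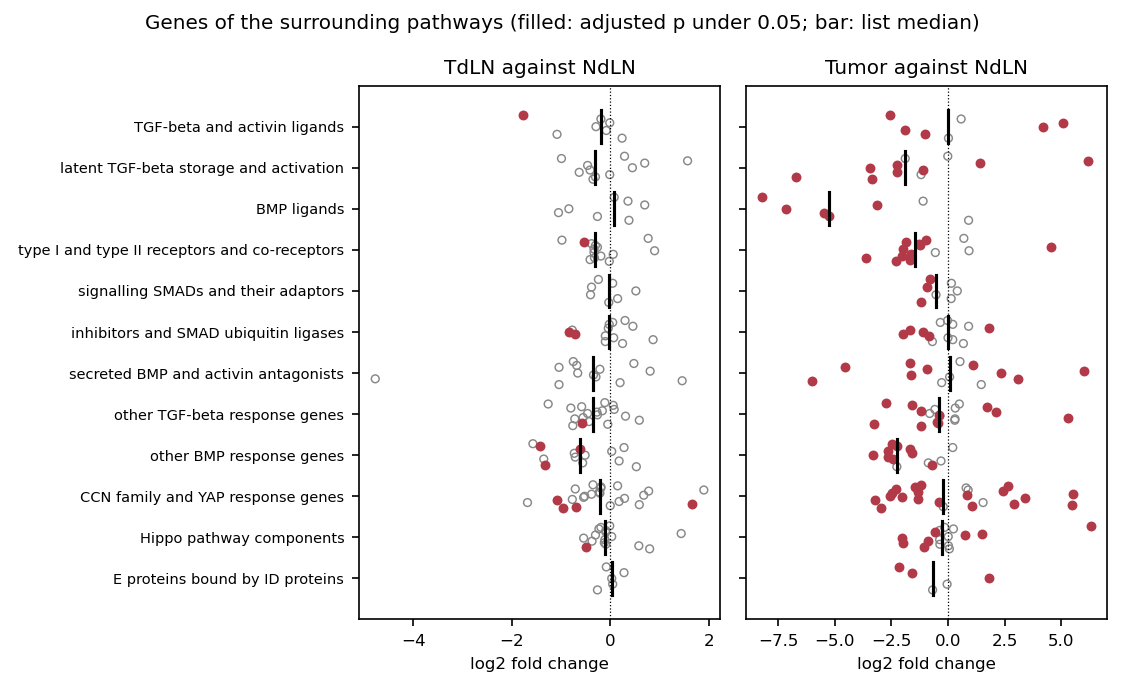
Log2 fold changes of the genes of each pathway list in TdLN against NdLN (left) and Tumor against NdLN (right), with filled points for an adjusted p under 0.05 and a bar at the list median. The axes differ between panels, and the bar of the BMP ligands stands at -5.26 on the right.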

How the data were processed

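The authors deposited raw counts per gene, whole numbers not normalized, for 21839 genes in 15 libraries. CASAVA 1.8.2, STAR 2.4 and featureCounts 1.4.6 with build GRCm38 were used, per the submitters' processing notes. Annotation release and strand setting: not given in the sources used here. Per the labels' protocols, cDNA was amplified from low input and read as single reads. IDs were matched to GENCODE M21 (21628 matched, and the other 211 held 0.0859% of counts).

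One fit of all 15 libraries was made with edgeR 4.0.16 in R 4.3.3 (TMM factors, filterByExpr, robust quasi-likelihood F tests, Benjamini-Hochberg adjustment over 13887 genes), and tested on simulated data. Standard errors come from the F statistic. Nothing says that libraries of a group are separate animals, so p-values reflect only how far libraries differ, which may be technical. No pair of libraries agreed within sampling noise (lowest mean chi-square per gene 28.3). The members and lists were chosen with earlier results of these data known.

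Named genes were the 9 members, up to 3 genes per list with the smallest adjusted p among those called in a comparison, ligand, receptor and SMAD genes whose average log2 CPM reached 5, the 3 genes most like each of 5 members, and the marker and immediate early genes given at the start. The text names part of them, and Acta2, Bmp3, Bmp6, Bmpr1a, Ccl21a, Cd34, Col1a1, Crim1, Emcn, Flt1, Glycam1, Gpihbp1, Grem1, Itgav, Itgb5, Ly6c1, Lyve1, Mob1a, Plvap, Reln, Sav1, Snai2, Sostdc1, Tead3, Tead4, Tgfb2 and Vwf were named after their values were seen. Some genes that the rule or a count would name are not reported here. Correlations used log2 CPM with a prior count of 2. Alternatives were RLE and upper quartile factors, no filter, a filter at CPM 10 in 5 libraries, DESeq2 1.42.0, voom with quality weights from limma 3.58.1, a fit without the third group, a replicate block, glmTreat with a log2 fold threshold of 1, leaving out each library and, for shares, raw counts. Figures were drawn with matplotlib 3.10.9.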

Additional observations from a re-analysis of the deposited data

Results flagged for a closer look

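Of 42 groups of 5 values examined, 5 had 1 library whose gap to the nearest other exceeded Dixon's critical value of 0.71 of the range, which chance gives in 5% of groups. NdLN 2 stood above the other NdLN libraries for Ccn1, at 6676 CPM where the next library was at 5234, and for Ccn2, at 197 CPM where the next was at 139. TdLN 4 held 10.4 CPM of Smad7, where the next TdLN library was at 4.27. Tumor 1 held 245 CPM of Tgfbr2, where the next Tumor library was at 459. TdLN 5 had the lowest Ccn1 share of the CCN pair in its group, 96.9%, where the next was at 97.8%.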

How the results depend on the processing

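Over 27 member comparisons, 606 of 642 values under the alternatives kept direction and side of the threshold, 20 lost a call, 10 gained one and 6 changed sign. The sign changes were all in genes of few counts: Smad7 in TdLN against NdLN with limma voom (0.10) and without NdLN 1 (0.04), NdLN 2 (0.09) or TdLN 1 (0.04), and Smad6 without TdLN 4 (-0.40, same comparison) and with limma voom in Tumor against TdLN (-0.21). The cause was not tested. With 1 library left out, these values of TdLN against NdLN ranged from -0.54 to 0.09 for Smad7 and from -0.40 to 0.67 for Smad6. Smad6 and Smad7 did not enter the fit with the stricter filter.

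For TdLN against NdLN, 484 genes were called, but 994 with DESeq2, 818 with limma voom and 225 to 741 with 1 library left out (245 without NdLN 2, 307 without NdLN 3, 277 without NdLN 4, 319 without NdLN 5, 225 without TdLN 1, 258 without TdLN 2, 315 without TdLN 3, 741 without Tumor 1). Of called genes, 52.9% were higher, 40.1% with limma voom and 38.7% with only the 2 groups. The members called there, 4, became 2 to 5 with 1 library left out (2 without NdLN 2, TdLN 1 or TdLN 3). With a log2 fold threshold of 1, glmTreat called 0 genes (407 at an unadjusted p under 0.05) and 0 members there, 3525 genes and 2 members in Tumor against TdLN, and 4189 genes and 3 members in Tumor against NdLN.

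As shares of raw counts, without length, Id1 was 8.67, 9.07 and 14.6% in NdLN, TdLN and Tumor, Id2 14.3, 26.6 and 32.8%, and Ccn1 97.4, 96.8 and 84.4%, with the order of groups as before. Correlations of same-numbered deviations were -0.21 to 0.248, and in most cases a library of another number correlated better. In Tumor against TdLN all same-numbered values were negative (-0.039 to -0.21). Such correlations cannot settle whether libraries of the same number came from the same mouse, so pairing stays unknown. With a replicate block, 400, 8381 and 8995 genes and 4, 5 and 5 members were called, Id1 being added in Tumor against TdLN (0.78, adjusted p = 0.01).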
